A study of Mus musculus with 6 samples.

Results

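The genes described here are the ligands of the tumour necrosis factor (TNF) superfamily, their receptors and the TRAF adaptor proteins that bind the receptors inside the cell. Members were taken by gene name: Tnf, every Tnfsf and Tnfrsf gene with a number, Lta, Ltb, Ltbr, Fas, Fasl, Cd27, Cd40, Cd40lg, Cd70 and Traf1 to Traf7. The deposited table of 29734 genes held 48 of them, namely 16 ligands, 24 receptors, 7 TRAF adaptors and the antisense RNA Tnfsf13os; Cd70 matched no row and was not analysed here. Family members with other names (Eda, Edar, Eda2r, Ngfr and Relt) were read with the pathway genes. The samples were livers of male mice that received a Western diet (WD) for 20 weeks, starting when they were 8 weeks old. One group carried the Prdx1 C52S allele, with serine in place of cysteine 52 of the hydrogen peroxide-reducing enzyme peroxiredoxin 1 (3 libraries, numbered 1, 2 and 4, called mutant below), and the other group was wild type, WT (3 libraries, numbered 6, 8 and 9). Both groups were on the diet, and no group on another diet was analysed here. The labels state neither whether animals were pooled nor how the allele was made, so p-values measure the spread between these libraries.

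TNF superfamily ligands are trimeric proteins, most of them made as membrane proteins on leukocytes. They cluster receptors whose tails either carry a death domain, as in Tnfrsf1a and Fas, or bind TRAF proteins directly, as in Tnfrsf1b, Ltbr and Cd40. From there the signal runs through ubiquitin ligases and IkB kinases to NF-kB, or through Fadd and caspase 8 to cell death. In the liver, hepatocytes are known for their sensitivity to Fas ligation, Kupffer cells as a source of TNF, and lymphotoxin and TWEAK signals for their part in bile duct and progenitor cell growth.

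Promoter sequences are shown for 3 genes that recur below. Ltb had the most negative fold change of the family, Tnf is its neighbour and namesake of the family, and Traf3 is an adaptor with a match to the same motif whose level differed little between the groups. They are RefSeq sequences on GRCm38.p6, read in the direction of the gene, and each ends at the base before the gene start in the deposited table. For Tnf and Traf3 this is also the RefSeq start, while for Ltb the RefSeq start lies further downstream. Capitals mark a match to the NF-kB consensus in Ltb and Traf3, and the letters TATAAA in Tnf.
Ltb, chr17:35194257-35194438, plus strand: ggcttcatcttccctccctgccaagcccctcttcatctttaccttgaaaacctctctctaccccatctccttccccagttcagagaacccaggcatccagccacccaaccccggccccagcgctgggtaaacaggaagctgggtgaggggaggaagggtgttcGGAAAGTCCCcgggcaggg
Tnf, chr17:35202008-35202257, minus strand: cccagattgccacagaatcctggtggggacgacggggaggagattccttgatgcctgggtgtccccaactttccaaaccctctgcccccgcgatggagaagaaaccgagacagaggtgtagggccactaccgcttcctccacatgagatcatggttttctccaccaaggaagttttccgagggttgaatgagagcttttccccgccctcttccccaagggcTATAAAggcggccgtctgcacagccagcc
Traf3, chr12:111166120-111166369, plus strand: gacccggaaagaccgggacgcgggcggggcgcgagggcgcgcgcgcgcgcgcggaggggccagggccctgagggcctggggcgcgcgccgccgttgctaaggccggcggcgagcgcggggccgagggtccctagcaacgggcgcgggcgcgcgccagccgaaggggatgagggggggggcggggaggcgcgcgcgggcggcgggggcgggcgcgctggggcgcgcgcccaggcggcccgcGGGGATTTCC
Over the 250 bases before each annotated start site, on both strands, the NF-kB consensus matched in 7.25% of all 32851 promoters and in 5 of the 42 promoters found for 38 members (Ltb, Traf3, Tnfrsf8, Tnfrsf9 and Tnfrsf25). The letters TATAAA were in 12.4% of all promoters and in 6 of the 42 (Tnf, Lta, Tnfrsf17, Tnfrsf23, Tnfsf11 and Tnfsf18). In Ltb the match lies 87 to 78 bases before that RefSeq start, hence near the end of the sequence printed, and reads on the opposite strand. A match describes letters in this window and does not show binding.

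In FPKM, 8 of the 12 ligands tested were lower in every Prdx1 C52S liver than in every WT liver, beside 36.7% of genes tested. The ligands Tnfsf9, Tnfsf14, Tnfsf15 and Cd40lg overlapped. The most abundant receptors, Ltbr and Tnfrsf1a, overlapped too. The summed level of the 16 ligands was 9.73, 8.63 and 8.83 FPKM (fragments scaled for transcript length and sequencing depth) in mutant livers 1, 2 and 4, against 17.9, 34.7 and 16.3 in WT 6, 8 and 9. The groups did not overlap, WT 8 was highest, and Tnfsf12 and Ltb made up most of the sum. The summed receptors were at 115, 105 and 107 FPKM against 110, 147 and 144, and here WT 6 lay within the Prdx1 C52S range. The 7 TRAF genes summed to between 22.2 and 22.7 in Prdx1 C52S and to 26.0, 34.2 and 25.8 in WT 6, 8 and 9.

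No member passed an adjusted p of 0.05 in edgeR's quasi-likelihood test with Benjamini-Hochberg adjustment over the 18931 genes tested (0 lower and 0 higher, background 0.0% in each direction). Of the 48 members, 42 passed the filter on low counts, which keeps a gene that is present in 1 group alone. At an unadjusted p under 0.05, 13 of the 42 were lower in Prdx1 C52S and 0 were higher, beside 14.8% and 11.5% of all genes tested. These 13 were 8 ligands (Ltb, Tnfsf12, Tnfsf8, Tnfsf10, Fasl, Tnf, Tnfsf13b and Tnfsf13), 3 receptors (Tnfrsf11a, Tnfrsf10b and Tnfrsf12a) and 2 adaptors (Traf1 and Traf7). Without mutant 1, and likewise without mutant 2, 8 members were lower at that p, beside 12.0% and 9.02% of all genes in these fits. The median log2 fold change, Prdx1 C52S minus WT, was -0.24 over the 42 members, with -0.79 for 12 ligands, -0.14 for 22 receptors and -0.13 for 7 TRAF genes, beside -0.03 over all genes tested. A negative value was found for 28 of the 42 members, beside 53.0% of all genes.

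In FPKM, 16 of the 42 tested members had every mutant library below every WT library and 0 had the reverse, beside 36.7% and 6.09% of all genes tested. The first share is close to that of all genes. After TMM scaling, which corrects for library composition, these counts were 12 (8 ligands, 2 receptors and 2 TRAF genes) and 1 (Tnfrsf11b), beside 18.0% and 16.9%.

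Other tools made calls where edgeR made none. DESeq2 called 8 members lower and 0 higher (9.88% and 8.02% of its genes): Ltb, Traf1, Tnfrsf11a, Tnfsf12, Tnfrsf10b, Tnfsf8, Tnfsf10 and Tnfrsf12a. With quality weights per library, voom called Traf1, Tnfrsf11a, Ltb and Tnfsf12 lower and 0 higher (4 members, beside 5.31% and 5.4% of genes). Without WT 8, edgeR called 1 member lower, Ltb, and 0 higher (1.94% and 2.7% of all genes), and 12 lower and 2 higher, Tnfrsf11b and Tnfrsf19, at an unadjusted p under 0.05 (11.1% and 11.2%). The tests on library totals (0.66% of all genes lower), on log2(FPKM + 1) (0.497%), on log2(FPKM + 0.1) (1.17%), on counts divided by 4 (0.257%) and with upper-quartile factors (0.0%) called 0 members in either direction. In the same order, 0.185%, 0.206%, 0.312%, 0.276% and 0.0% of all genes were called higher.

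**Figure D1:**
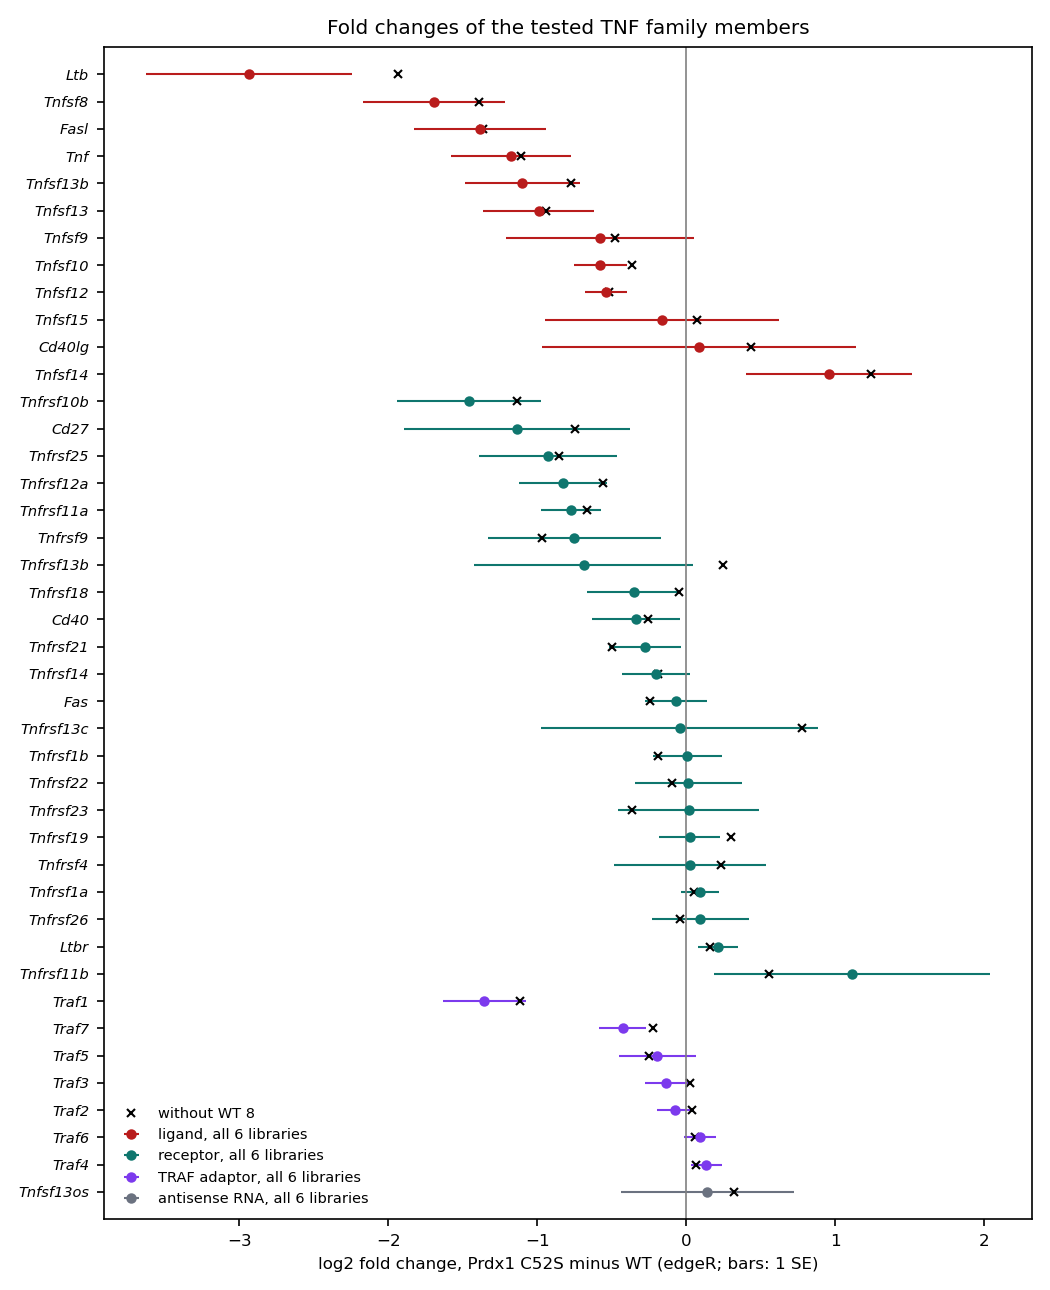
Log2 fold change (x axis, Prdx1 C52S minus WT, edgeR) of the 42 tested members, with bars of 1 SE and crosses for the fit without WT 8. Of the 12 ligands, 10 lie left of 0, and the adaptor with the most negative value is Traf1.

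Prdx1 itself was at 238 to 261 FPKM in the mutant livers and 232 to 270 in WT, and since the allele is a substitution this level does not check the genotype. Library totals ran from 60326469 to 76164949 estimated counts, and several of these may stand for 1 sequenced fragment. The WT 8 library stood apart: its scaling factor (TMM) was 1.28 beside 0.883 to 1.04 in the other 5, and it was the highest library for 27 of the 42 tested members (64.3%, beside 59.4% of all genes tested). Scaling by library totals instead of TMM moved the median of all genes from -0.03 to -0.34, so a log2 fold change near 0 takes its sign from the scaling. Hepatocyte markers summed to between 28190 and 30360 FPKM in Prdx1 C52S and between 25960 and 27740 in WT. The 6 macrophage markers summed to 194 to 222 FPKM in Prdx1 C52S and 459 to 507 in WT, and all 6 had negative fold changes. The 8 T and NK cell markers, also with 8 negative fold changes, summed to 1.59 to 2.38 against 4.02 to 9.10. The 6 monocyte and neutrophil markers, with 6 negative fold changes, were at 6.70 to 17.2 against 23.1 to 26.5, and the 6 stellate cell and fibroblast markers, with 5, at 57.4 to 73.6 against 81.7 to 127. Neither list overlapped between the groups. The 6 cholangiocyte markers were at 2.71 to 6.32 against 15.1, 97.5 and 9.15 in WT 6, 8 and 9. The 5 Kupffer cell markers were at 162 to 206 against 237, 35.2 and 267, with Timd4 at 0 in WT 8. Unlike the macrophage list, 0 of these 5 had a negative fold change. Their median log2 fold change was 0.47, or -0.08 without WT 8. Of the marker lists, no gene was at 0 in all libraries. In bulk liver, fewer cells of a type cannot be told apart from less RNA per cell. How far these cell type differences account for the values of the TNF family was not tested. An overlapping gene lies on the strand of 8 members (Rab26 for Traf7) and opposite 16 (Camta1 for Tnfrsf9, Vamp1 for Cd27), where the assignment of reads is uncertain.

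Tnf, the founding cytokine of the family, and lymphotoxin beta (Ltb), the membrane subunit that anchors lymphotoxin heterotrimers, lie beside each other on chromosome 17 of GRCm38, Ltb at 35194439 to 35196305 and Tnf at 35199381 to 35202007. Ltb was at 0.846, 0.838 and 0.317 FPKM in mutant livers 1, 2 and 4, and at 3.53, 14.6 and 2.35 in WT 6, 8 and 9. The groups did not overlap, and WT 8 was far above the other libraries. T and NK cell and cholangiocyte markers were highest in WT 8 too, and their part was not tested. The log2 fold change was -2.93 (SE 0.69, adjusted p = 0.0874 in edgeR), and without WT 8 it was -1.93 (SE 0.42, adjusted p = 0.0476 in edgeR).

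Tnf was near 0.3 FPKM in each Prdx1 C52S library (0.307, 0.306 and 0.283, from 32 to 43 estimated counts) and at 1.07, 1.05 and 0.431 in WT 6, 8 and 9. The mutant libraries were nearly equal, and WT 9 lay closer to them than to the other WT libraries. Leaving out 1 library at a time gave Tnf log2 fold changes from -1.46 (without WT 9) to -0.89 (without WT 6), around -1.18 with all 6. Lymphotoxin alpha (Lta), the third gene of this cluster at 35203165 to 35205351, was listed at 0 in 5 libraries and at 0.154 in WT 8, and was not tested. LIGHT (Tnfsf14), which also binds Ltbr, was at 0.138, 0.166 and 0.349 against 0.134, 0.213 and 0.0729 FPKM, with overlapping groups and a log2 fold change of 0.96 (SE 0.56, adjusted p = 0.312 in edgeR), or 0.45 without Prdx1 C52S 4.

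The death ligands were both below WT in each library. Fas ligand (Fasl), which T and NK cells use to kill, was at 0.0725, 0.136 and 0.0800 FPKM in mutant livers 1, 2 and 4, and at 0.316, 0.379 and 0.269 in WT 6, 8 and 9. Its level rested on 11 to 61 estimated counts per library, and its log2 fold change of -1.38 (SE 0.44, adjusted p = 0.12 in edgeR) was -1.37 without WT 8. Markers of T and NK cells were lower in the same livers, and their part in this value was not tested. TRAIL (Tnfsf10), the ligand of the death receptor Tnfrsf10b, was at 1.61, 1.66 and 1.69 against 2.24, 4.42 and 2.63. The 3 mutant libraries spanned less than 0.1 FPKM, and WT 8 stood above the other WT libraries. Its log2 fold change was -0.58 (SE 0.18, adjusted p = 0.117 in edgeR), and -0.36 without WT 8.

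TWEAK (Tnfsf12), the ligand of Fn14, was the most abundant ligand on the FPKM scale in 5 libraries, the exception being WT 8, where Ltb was higher. It was at 5.84, 4.44 and 4.41 FPKM in mutant livers 1, 2 and 4, and at 7.83, 10.3 and 8.20 in WT 6, 8 and 9, and made up 49.9% to 60.0% of the summed ligand level in Prdx1 C52S and 29.6% to 50.4% in WT. The groups did not overlap. Its log2 fold change, -0.54 (SE 0.14, adjusted p = 0.0971 in edgeR), stayed between -0.67 and -0.47 when any 1 library was left out. APRIL (Tnfsf13), a survival ligand of plasma cells, lies next to it on chromosome 11 and was at 0.455, 0.781 and 1.21 against 1.85, 2.45 and 1.73 (log2 fold change -0.99, SE 0.37). Both genes lie inside the read-through gene Tnfsfm13 on the same strand and are overlapped by the antisense gene Tnfsf13os, so reads may have been divided among them. Tnfsfm13, which was added after its values were seen, was at 3.00, 2.92 and 2.63 against 5.05, 6.21 and 4.79 FPKM, also with groups apart. Tnfsf13os was at 0.340, 0.680 and 0.147 against 0.351, 0.615 and 0.358, with overlapping groups.

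BAFF (Tnfsf13b), which keeps B cells alive, was at 0.0816, 0.0727 and 0.106 FPKM in mutant livers 1, 2 and 4, and at 0.206, 0.374 and 0.137 in WT 6, 8 and 9 (log2 fold change -1.10, SE 0.38). Its receptor genes on B and plasma cells showed no such separation: Tnfrsf13b ran from 0.102 to 0.399 in Prdx1 C52S and from 0.136 to 1.06 in WT, and Tnfrsf13c lay at or below 0.167 in every library. Tnfrsf17 was at or below 0.0551 and was not tested. The 6 B and plasma cell markers, with 5 negative fold changes, summed to 13.8 to 28.6 FPKM in Prdx1 C52S and 11.5 to 23.9 in WT. Their median log2 fold change was -0.19, or 0.21 without WT 8.

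Co-stimulatory ligands of lymphocytes were scarce. Tnfsf8, the CD30 ligand, was at 0.0352, 0.0353 and 0.0441 FPKM in Prdx1 C52S 1, 2 and 4, which is 12 estimated counts in each library, and at 0.153, 0.254 and 0.0899 in WT 6, 8 and 9. The groups were apart, with a log2 fold change of -1.70 (SE 0.48, adjusted p = 0.105 in edgeR). With counts divided by 4, Tnfsf8 did not pass the filter on low counts and had no value. Tnfsf9, Tnfsf15 and Cd40lg were tested with overlapping groups and log2 fold changes of -0.58, -0.16 and 0.09 and SEs from 0.63 to 1.05. Tnfsf4, Tnfsf11 and Tnfsf18 were at or below 0.0930 FPKM in every library and were not tested.

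**Figure D2:**
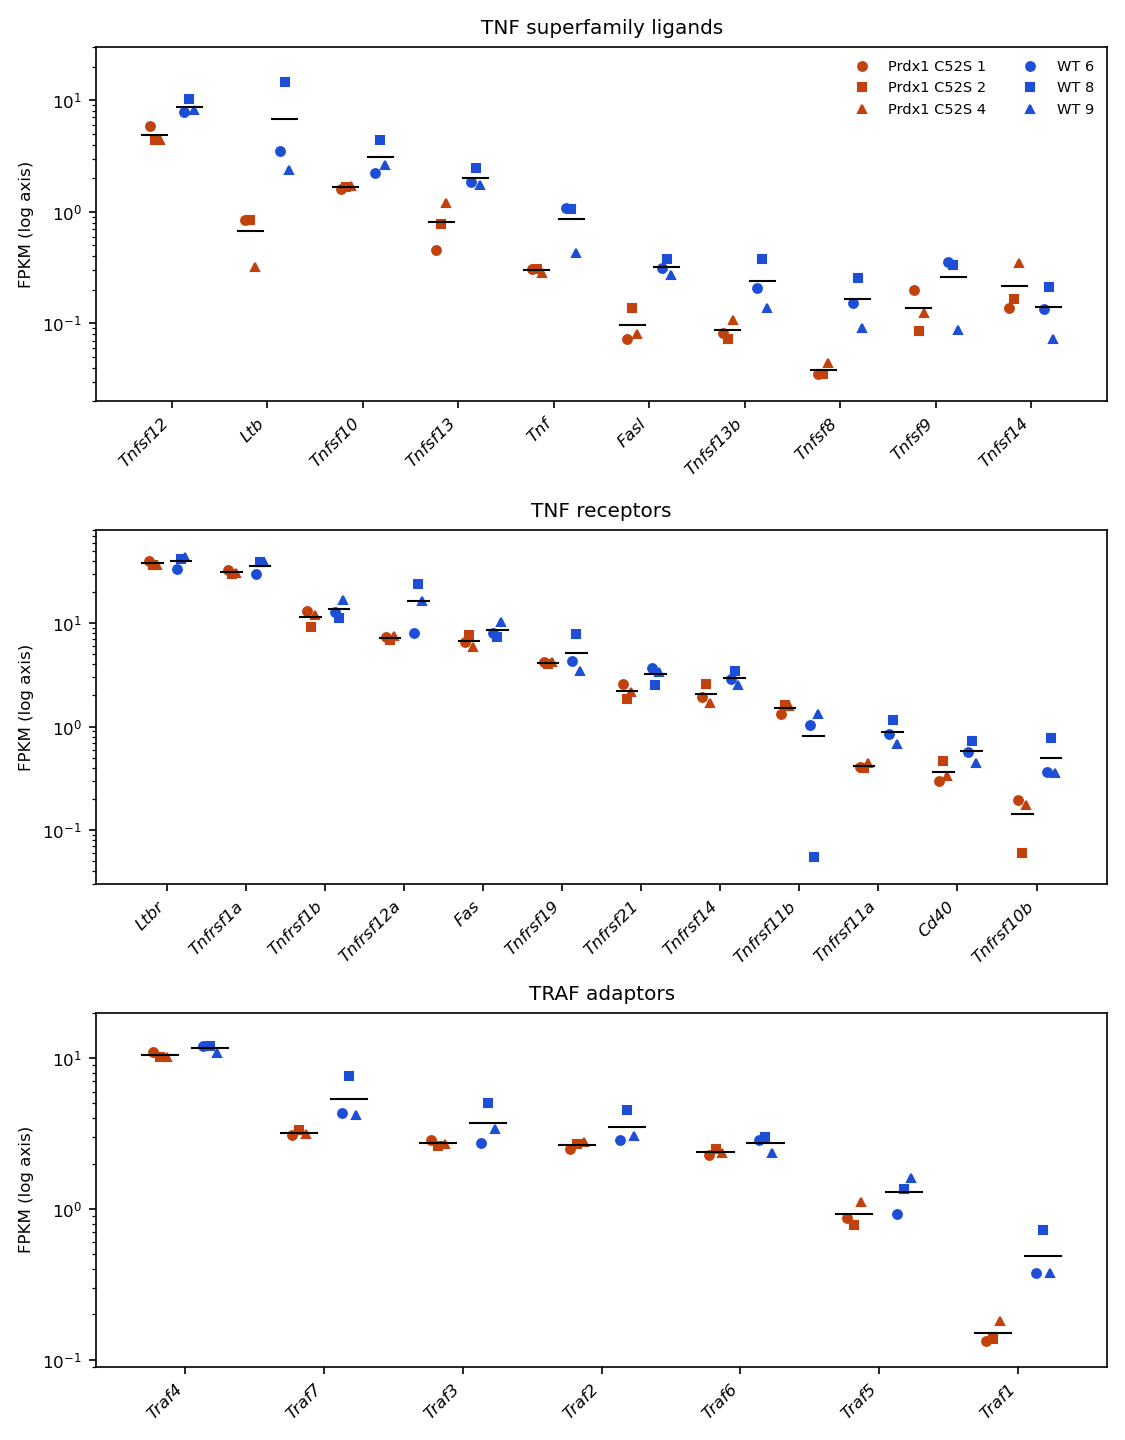
FPKM (log axis) of ligands, receptors and TRAF adaptors in each library, with orange for Prdx1 C52S, blue for WT and a black line for each group mean. Ligands such as Ltb, Tnf and Fasl separate by group, Ltbr and Tnfrsf1a overlap, and WT 8 is low for Tnfrsf11b.

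Ltbr and Tnfrsf1a dominated the receptor transcripts and together made up 62.8% to 63.9% of the summed receptor FPKM in Prdx1 C52S and 55.0% to 57.9% in WT. They lie on chromosome 6 beside Cd27, Ltbr at 125306571 to 125313885 and Tnfrsf1a at 125349362 to 125361874. Ltbr, the lymphotoxin beta receptor of parenchymal and stromal cells, was at 39.9, 36.7 and 36.9 FPKM in mutant livers 1, 2 and 4, and at 33.1, 42.2 and 44.1 in WT 6, 8 and 9. The mutant libraries lay inside the WT range. The log2 fold change was 0.21 (SE 0.14, adjusted p = 0.348 in edgeR), -0.08 when scaled by library totals, and 0.36 (SE 0.10, adjusted p = 0.0779 in edgeR) without WT 9.

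Tnfrsf1a, the main death domain receptor of TNF, was at 32.9, 30.2 and 30.4 FPKM against 29.7, 38.8 and 39.1, again with the mutant libraries inside the WT range. Its log2 fold change was 0.09 (SE 0.13, adjusted p = 0.694 in edgeR), and -0.21 when scaled by library totals. Tnfrsf1b, the TRAF-binding TNF receptor found mainly on leukocytes and endothelium, was at 13.0, 9.11 and 12.0 against 12.9, 11.2 and 16.6 (log2 fold change 0.0069, SE 0.23, and -0.26 by library totals). Fas, the receptor of Fas ligand, was at 6.58, 7.62 and 5.93 against 7.98, 7.36 and 10.2, with WT 8 inside the mutant range (log2 fold change -0.07, SE 0.21, adjusted p = 0.859 in edgeR; 0.14 without WT 9). With all 6 libraries, these 4 receptors each had a log2 fold change within 2 SE of 0, and without WT 9 those of Ltbr and Tnfrsf1a (0.22, SE 0.10) were beyond it.

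Fn14 (Tnfrsf12a), the TWEAK receptor that injured epithelium expresses, was even in the mutant livers and variable in WT. It was at 7.37, 6.85 and 7.55 FPKM in mutant livers 1, 2 and 4, and at 8.05, 24.2 and 16.4 in WT 6, 8 and 9. WT 6 lay just above the mutant libraries, and after TMM scaling it overlapped them. The log2 fold change was -0.83 (SE 0.30, adjusted p = 0.143 in edgeR), -0.56 without WT 8 and -1.12 without WT 6. Cholangiocyte markers were also highest in WT 8, as were 59.4% of all genes tested, and lower in the mutant libraries. In WT 6 and WT 9 these markers summed to 15.1 and 9.15 FPKM, the reverse of the order of Tnfrsf12a. Their part in its values was not tested.

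Tnfrsf10b, the mouse TRAIL death receptor, was at 0.195, 0.0594 and 0.174 FPKM in mutant livers 1, 2 and 4, and at 0.368, 0.784 and 0.355 in WT 6, 8 and 9. The groups were apart, with 28 estimated counts in the lowest library and 356 in the highest (log2 fold change -1.46, SE 0.48, adjusted p = 0.126 in edgeR). RANK (Tnfrsf11a), the receptor of RANK ligand, was at 0.409, 0.396 and 0.447 against 0.840, 1.15 and 0.676. It was the receptor with the smallest p, its groups did not overlap, and its log2 fold change of -0.77 (SE 0.20, adjusted p = 0.0965 in edgeR) ran from -0.89 to -0.67 with 1 library left out.

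Osteoprotegerin (Tnfrsf11b), the secreted decoy for RANK ligand and TRAIL, was the receptor with the most positive fold change. It was at 1.32, 1.62 and 1.59 FPKM in mutant livers 1, 2 and 4, and at 1.03, 0.0546 and 1.32 in WT 6, 8 and 9. WT 8 held 13 estimated counts where the other libraries held 233 to 382. The log2 fold change of 1.11 had an SE of 0.92 (adjusted p = 0.483 in edgeR). Without WT 8 it was 0.55 with an SE of 0.22 (adjusted p = 0.192 in edgeR). Its FPKM groups overlapped by a narrow margin, and after TMM scaling they did not.

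Death domain receptor Tnfrsf21 was at 2.60, 1.85 and 2.18 FPKM against 3.71, 2.51 and 3.41, overlapping through WT 8. Its log2 fold change of -0.28 was -0.50 (SE 0.15) without that library. Tnfrsf25, a receptor of T cells, lay at 0.0904 to 0.209 in Prdx1 C52S and at 0.219 to 0.481 in WT, just apart. Its groups overlapped after TMM scaling, and its log2 fold change was -0.93 (SE 0.46). Tnfrsf19 (TROY) was at 4.23, 4.01 and 4.22 against 4.29, 7.79 and 3.41, its log2 fold change was 0.02 (SE 0.21), and it was 0.30 without WT 8, -0.15 without WT 9 and -0.32 by library totals. HVEM (Tnfrsf14), the LIGHT receptor, ran from 1.68 to 2.60 against 2.53 to 3.42.

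Cd40, the receptor through which T cells license antigen-presenting cells, was at 0.298, 0.468 and 0.336 FPKM in mutant livers 1, 2 and 4, and at 0.569, 0.728 and 0.446 in WT 6, 8 and 9, where WT 9 and Prdx1 C52S 2 overlapped (log2 fold change -0.34, SE 0.29). Lymphocyte receptors Cd27, Tnfrsf9 and Tnfrsf18 had log2 fold changes of -1.14, -0.75 and -0.35 with SEs from 0.31 to 0.76, and Tnfrsf4 was at 0.03. With 1 library left out, Cd27 ran from -1.82 (without mutant 1) to -0.70 (without mutant 2) and Tnfrsf9 from -1.48 (without mutant 1) to -0.48 (without mutant 2). The value of Tnfrsf18 rested on WT 8 and was -0.05 without it. Tnfrsf8 lay at or below 0.0763 FPKM and was not tested. The closely related mouse genes Tnfrsf22, Tnfrsf23 and Tnfrsf26 lie together on chromosome 7, where reads may be shared between copies. They were between 0.265 and 1.15 FPKM, with log2 fold changes of 0.01, 0.01 and 0.09.

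A ratio of 2 genes within a library does not depend on library scaling. The level of a ligand was therefore also expressed as a percentage of its receptor's FPKM for 11 chosen pairs with both genes tested. Other tested pairs, such as Cd40lg with Cd40 and Tnfsf13b with Tnfrsf13c, were not included. These ratios were chosen after the values were seen and are given without a test. Ratios of unrelated gene pairs were not computed, so no background share stands beside the counts of pairs apart. Ltb was 2.12%, 2.29% and 0.859% of Ltbr in mutant livers 1, 2 and 4, against 10.7%, 34.6% and 5.34% in WT 6, 8 and 9. Fasl was 1.10%, 1.79% and 1.35% of Fas against 3.96%, 5.16% and 2.65%. Tnf was 0.931% to 1.01% of Tnfrsf1a against 3.62%, 2.72% and 1.10%. In these 3 pairs the mutant libraries lay below the WT libraries, for Tnf by a narrow margin set by WT 9. Tnf against Tnfrsf1b overlapped (2.36% to 3.36% and 2.59% to 9.45%).

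In 2 pairs the mutant ratios lay above WT. Tnfsf10 was 825% to 2794% of Tnfrsf10b in Prdx1 C52S and 563% to 741% in WT. Both genes were lower in the mutant livers, the receptor by more than its ligand. The ratio of 2794% was in mutant 2, where Tnfrsf10b held 28 estimated counts. Tnfsf14 was 6.39% to 20.8% of Tnfrsf14 against 2.88% to 6.24%. That margin was narrow, and Tnfsf14 rested on 12 to 44 estimated counts per library. The remaining 6 pairs overlapped, among them Tnfsf12 with Tnfrsf12a (58.4% to 79.3% against 42.4% to 97.3%), where ligand and receptor were both lower in the mutant group.

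**Figure D3:**
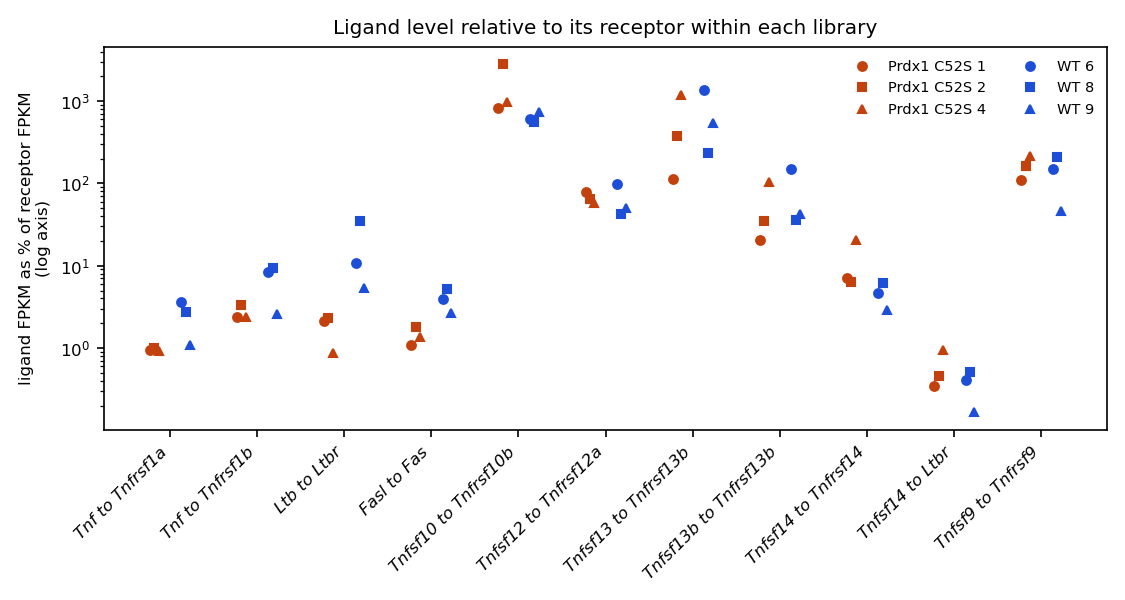
FPKM of a ligand as a percentage of the FPKM of its receptor in each library (log axis), with orange for Prdx1 C52S and blue for WT. The ratios of Ltb to Ltbr and of Fasl to Fas are lower in each Prdx1 C52S library, and that of Tnfsf12 to Tnfrsf12a overlaps.

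The TRAF adaptors differed from each other. Traf1, which is itself induced by NF-kB and has no RING ubiquitin ligase domain, was the member with the smallest p of the whole family. It was at 0.134, 0.137 and 0.181 FPKM in mutant livers 1, 2 and 4, and at 0.376, 0.721 and 0.378 in WT 6, 8 and 9 (chromosome 2, 34941750 to 34961597). The groups were apart, and WT 6 and WT 9 were nearly equal. The log2 fold change was -1.35 (SE 0.28, adjusted p = 0.0789 in edgeR), and -1.12 (SE 0.26, adjusted p = 0.0533 in edgeR) without WT 8.

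Traf7, an atypical member with WD40 repeats, was at 3.09, 3.33 and 3.13 FPKM against 4.32, 7.65 and 4.18. Its groups were apart, and its log2 fold change of -0.43 (SE 0.16, adjusted p = 0.151 in edgeR) was -0.22 without WT 8. Traf7 overlaps Rab26 on the same strand.

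The signalling adaptors of the TNF and CD40 receptors lay close to WT. Traf2, the ligase that recruits cIAP proteins to TNF receptors, was at 2.48, 2.69 and 2.78 FPKM against 2.85, 4.51 and 3.05, with a log2 fold change of -0.07 (SE 0.13) that was 0.04 without WT 8. Traf3, which restrains the non-canonical kinase Map3k14 and whose promoter is shown above, was at 2.85, 2.60 and 2.70 against 2.74, 5.05 and 3.37 (-0.13, SE 0.15; 0.02 without WT 8). Both were highest in WT 8, and Traf2 was just apart in FPKM while Traf3 overlapped. With TMM scaling both overlapped. Traf6, the adaptor of CD40, RANK and Toll-like receptors, was at 2.29, 2.50 and 2.35 against 2.85, 3.00 and 2.37 (0.09, SE 0.11).

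Traf4, the most abundant adaptor, was at 11.0, 10.1 and 10.1 FPKM against 11.9, 11.9 and 10.8 (log2 fold change 0.14, SE 0.10), with WT 9 inside the mutant range. By library totals Traf4 was at -0.16 and Traf6 at -0.21, so their signs depend on the scaling. Traf5, a partner of Traf2 in lymphocytes, was at 0.869, 0.788 and 1.12 against 0.924, 1.37 and 1.60 (-0.20, SE 0.26; 0.06 without WT 9).

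The pathway around these genes was read from a list of 51 adaptors, ubiquitin ligases, kinases, NF-kB subunits and inhibitors, sheddases and family members with other names. Of the 50 tested, 0 passed an adjusted p of 0.05, and at an unadjusted p under 0.05 15 were lower and 7 higher in Prdx1 C52S, beside 14.8% and 11.5% of all genes. Without WT 8, edgeR called 3 lower and 2 higher, beside 1.94% and 2.7%. DESeq2 called 8 lower and 5 higher of the 50, beside 9.88% and 8.02% of its genes, and voom with quality weights 4 lower and 3 higher, beside 5.31% and 5.4%. The median log2 fold change of the list was -0.18.

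On the lower side, Tnfaip3 and Rhbdf2 had the smallest p-values of the list, followed by Tnfaip8. Tnfaip3 (A20), which NF-kB induces and which edits ubiquitin on the TNF receptor complex, was at 1.07, 0.871 and 1.12 FPKM in mutant livers 1, 2 and 4, and at 2.36, 3.91 and 3.07 in WT 6, 8 and 9. Each mutant library was below each WT library (log2 fold change -1.30, SE 0.16, adjusted p = 0.0553 in edgeR; adjusted p = 0.0151 without WT 8). Rhbdf2 (iRhom2), which brings the TNF-shedding protease Adam17 to the cell surface in myeloid cells, was at 2.62, 2.48 and 2.53 against 4.35, 6.62 and 4.14 (-0.67, SE 0.12, adjusted p = 0.0676 in edgeR; adjusted p = 0.0281 without WT 8). Adam17 itself was at 3.39, 2.90 and 2.94 against 3.96, 4.93 and 4.11 (-0.20, SE 0.09). Tnip1, a partner of A20, was at -0.62 (SE 0.19) and at -0.36 without WT 8, Tnfaip8 at -1.01 (SE 0.27) and the stress kinase Map3k5 (ASK1) at -0.41 (SE 0.13), with an adjusted p = 0.0338 in edgeR for Map3k5 without WT 8.

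Genes of the non-canonical NF-kB arm, through which Ltbr and Cd40 signal, had smaller fold changes without WT 8. They were picked out after their values were seen. Relb was at 0.947, 0.870 and 1.21 FPKM in mutant livers 1, 2 and 4, and at 1.63, 6.37 and 1.70 in WT 6, 8 and 9. Nfkb2 was at 3.41, 2.83 and 2.57 against 4.56, 10.9 and 4.34, and the kinase Map3k14 (NIK) at 0.821, 0.745 and 0.664 against 1.20, 3.03 and 1.13. The mutant libraries were lowest in each case, and WT 8 was more than 2 times the other WT libraries. Log2 fold changes were -1.29, -0.82 and -0.90 with all libraries (SE 0.46, 0.28 and 0.31). Without WT 8 they were -0.53, -0.41 and -0.45 (SE 0.20, 0.13 and 0.16). Ltb, at 14.6 FPKM, was likewise highest in WT 8, as were 59.4% of all genes tested. A relation between Ltb and these genes was not tested.

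On the higher side, Ikbkg (NEMO), the regulatory subunit of the IkB kinase complex, was at 11.5, 10.8 and 10.4 FPKM against 9.02, 9.51 and 9.38, with groups apart (log2 fold change 0.51, SE 0.11, adjusted p = 0.0819 in edgeR; adjusted p = 0.0339 without WT 8). Chuk (IKK alpha) was at 25.9, 25.5 and 24.7 against 22.0, 19.4 and 24.0, also apart (0.49, SE 0.17). The low-affinity neurotrophin receptor Ngfr, a TNF receptor family member, was at 2.15, 2.17 and 1.87 against 1.39, 0.786 and 1.38 (1.05, SE 0.31; adjusted p = 0.0436 in edgeR without WT 8). The caspase 8 inhibitor Cflar (0.44, SE 0.14) and the kinase Map3k7 (TAK1; 0.32, SE 0.09) overlapped in FPKM. By library totals these 5 genes were at 0.22, 0.21, 0.79, 0.14 and 0.02 on the log2 scale.

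Of the death-inducing branch, Ripk1 was at -0.0064 (SE 0.11), Tradd at 0.01 (SE 0.15), Fadd at 0.15 (SE 0.15) and Casp8 at -0.20 (SE 0.17) on the log2 fold change scale. Ripk3 was at -0.38 (SE 0.24) and Mlkl at -0.05 (SE 0.12). Ripk3 was lower in each mutant library in FPKM and after TMM scaling, Ripk1 and Mlkl in FPKM alone. By library totals Ripk1 was at -0.30, Tradd -0.31, Fadd -0.15, Ripk3 -0.68 and Mlkl -0.36, so the signs of Tradd and Fadd depend on the scaling. Casp8, the initiator caspase, was at 7.26, 8.63 and 7.99 FPKM in the mutant livers, below each WT liver (up to 12.3 in WT 9). These groups overlapped after TMM scaling. The Casp8 log2 fold change was -0.34 (SE 0.12) without WT 8, -0.05 without WT 9 and -0.48 by library totals. The canonical subunit Rela was at -0.01 (SE 0.10) and Nfkb1 at -0.37 (SE 0.13). By library totals Rela was at -0.32 and Nfkb1 at -0.69.

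**Figure D4:**
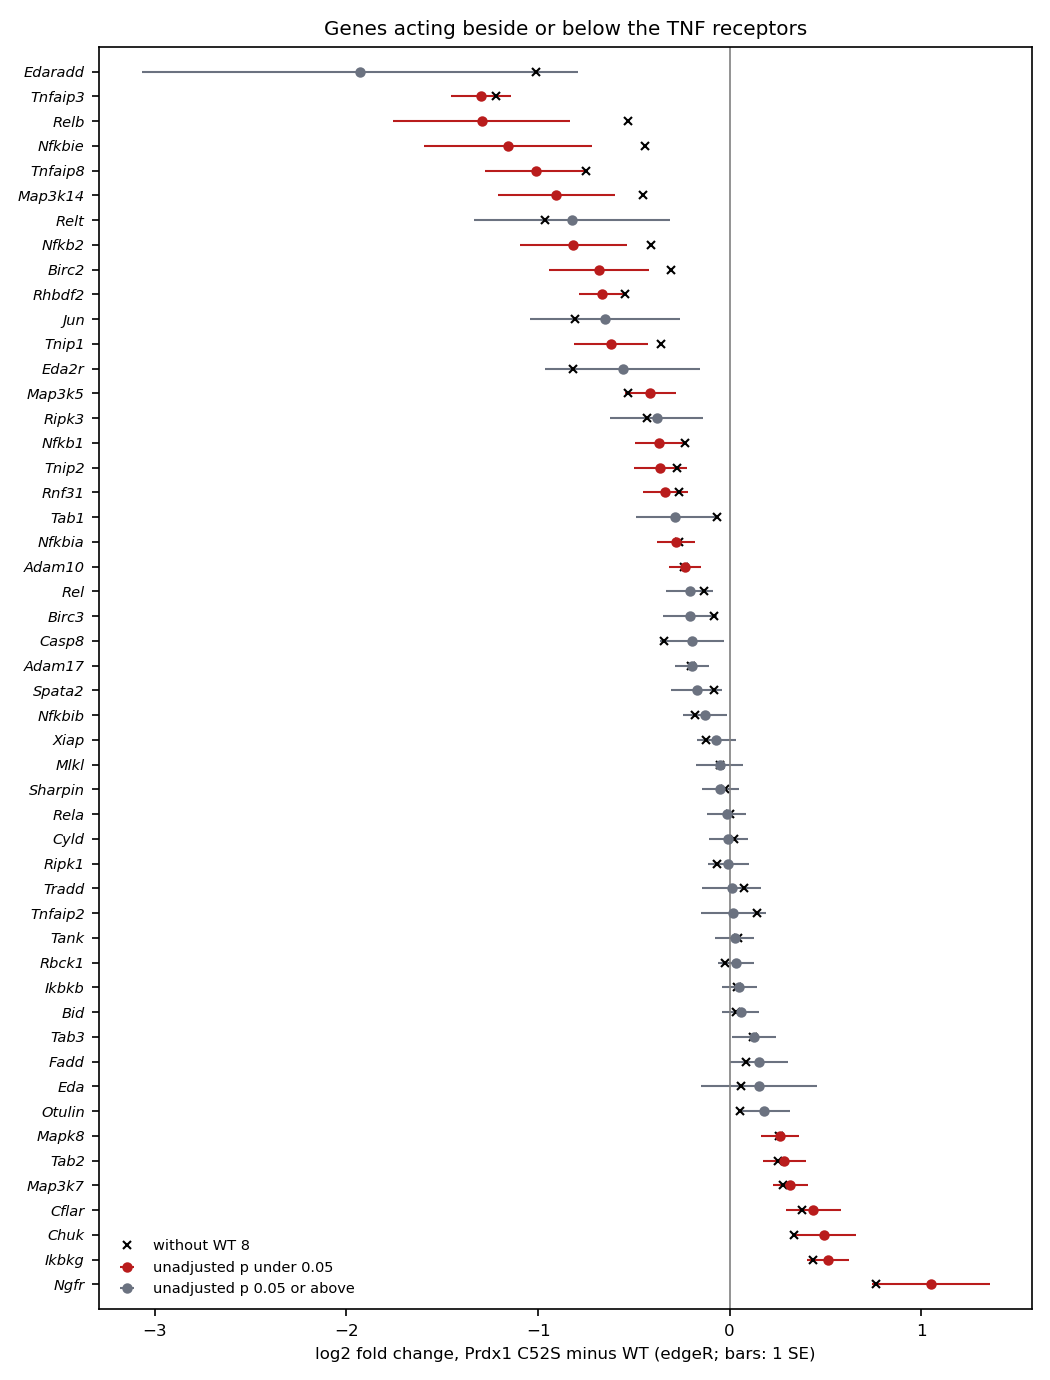
Log2 fold change (x axis, Prdx1 C52S minus WT, edgeR) of the 50 tested pathway genes, with bars of 1 SE, red for an unadjusted p under 0.05 and crosses for the fit without WT 8. Tnfaip3 keeps its value without WT 8, while Relb, Nfkb2 and Map3k14 move towards 0.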

How the data were processed

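Oligo(dT)-selected RNA of 6 livers was sequenced in pairs of reads. Per the file headers the table deposited by the authors gives FPKM and estimated counts for each gene. Among the programs listed in the submitters' processing notes are HISAT2 2.0.4, StringTie 1.3.4d, cutadapt 1.9 and UMI-tools. These notes name mm9, but 41 of the 48 members have the exact GRCm38 position of GENCODE M21. How strand and shared reads were treated is not given in the sources used here. Among low estimated counts the value 4 is the most frequent (6204 values, beside 5315 at 1 and 3538 at 3), so several may stand for 1 fragment. Whether reads sharing a molecular identifier were merged before counting is not given there either.

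After rounding, estimated counts entered edgeR 4.0.16 under R 4.3.3 (filterByExpr, TMM, robust quasi-likelihood F-test, two-sided, no covariate) with Benjamini-Hochberg adjustment over 18931 genes and a threshold of 0.05. The SE was taken as |log2 fold change| over the root of F. The script was tested on simulated counts. Alternatives were DESeq2 1.42.0, limma 3.58.1 on log2(FPKM + 1) and log2(FPKM + 0.1), voom, other scalings and filters, and each library left out. Members and lists were chosen with earlier results of these data known. Full values were due for Tnf, Fas, Tnfrsf1a, Tnfrsf1b, Cd40, Ltbr, Tnfrsf12a and Traf1 to Traf7, for the 8 members per direction with the smallest p among those reaching 0.3 FPKM, for the 3 most abundant of each class, and for 5 pathway genes per direction. Other genes with library values were picked after these were seen.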

Additional observations from a re-analysis of the deposited data

How the results depend on the processing

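No paired analysis was possible because the groups share no replicate numbers. Of 40 named log2 fold changes, 28 kept their sign under each of 15 alternatives (9 settings and 6 libraries left out) that gave a value, and 12 turned under at least 1. The filter of 1 FPKM in 3 libraries gave no value for 11 of them, and counts divided by 4 for 2 (Tnfsf8 and Tnfsf13os). Lower members at adjusted p numbered 8 (DESeq2), 4 (voom) and 0 to 1 with 1 library left out. At unadjusted p, lower members numbered 6 under the filter of 1 FPKM in 3 libraries, which left out the scarcer members (15.9% of all genes lower). They numbered 8 to 12 with 1 library left out, and higher members 2 (voom, 14.4% of all genes higher) and 0 to 2. With 1 library left out, 9.02% to 16.5% of all genes were lower at that p and 6.79% to 13.6% higher. Lower pathway genes at adjusted p numbered 8 (DESeq2), 4 (voom), 2 (library totals, log2(FPKM + 0.1) and the FPKM filter), 1 (no filter, counts divided by 4) and 0 to 3 with 1 library left out, and higher ones 5 (DESeq2), 3 (voom) and 0 to 2. Of all genes, 0.66% (library totals), 1.17% (log2(FPKM + 0.1)), 1.03% (the FPKM filter), 0.306% (no filter) and 0.257% (counts divided by 4) were lower at adjusted p. With 1 library left out, 0% to 1.94% were lower and 0% to 2.7% higher. At unadjusted p, lower pathway genes numbered 29 (library totals), 23 and 28 (log2(FPKM + 1) and log2(FPKM + 0.1)) and 6 to 15 with 1 library left out, and higher ones 2 in each of these 3 and 3 to 6. In these 3 settings 30.4%, 23.7% and 26.3% of all genes were lower and 3.73%, 4.41% and 4.44% higher at that p, so the counts moved with those of all genes. The cause was not tested.

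Signs turned as follows. On library totals Ltbr was -0.0822, Tnfrsf19 -0.3213, Tnfrsf1a -0.2096, Tnfrsf1b -0.2639, Tnfrsf26 -0.1941, Tnfsf13os -0.1935, Traf4 -0.16 and Traf6 -0.212. On log2(FPKM + 1) the same genes were at -0.0628, -0.1947, -0.1859, -0.2337, -0.0606, -0.066, -0.1389 and -0.1428, and on log2(FPKM + 0.1) at -0.064, -0.2204, -0.1906, -0.2507, -0.1739, -0.2669, -0.1502 and -0.19. With voom Tnfrsf1b was -0.0493, Tnfrsf26 -0.0021, Tnfsf13os -0.0341, Traf2 0.0274 and Traf3 0.0503. Tnfrsf19 and Tnfrsf1b were -0.0042 and -0.01 with upper-quartile factors and -0.0574 and -0.0489 under the FPKM filter. Tnfrsf1b was -0.0024 without a filter and -0.0014 with counts divided by 4. With 1 library left out, the range was -0.2411 to 0.1442 for Fas (above 0 without mutant 4 or WT 9), -0.1542 to 0.3012 for Tnfrsf19 (below 0 without WT 6 or WT 9), -0.1908 to 0.2429 for Tnfrsf1b (below 0 without mutant 1, mutant 4 or WT 8) and -0.1276 to 0.2914 for Tnfrsf26 (below 0 without mutant 4 or WT 8). It was -0.5143 to 0.5333 for Tnfsf13os (below 0 without mutant 2), -0.1504 to 0.0392 for Traf2 and -0.2709 to 0.0211 for Traf3 (both above 0 without WT 8), and -0.356 to 0.0603 for Traf5 (above 0 without WT 9). Levels under about 0.1 FPKM rest on few counts (12 estimated counts in each mutant library for Tnfsf8), which limits their precision.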
